A study of Mus musculus with 23 samples.

Results

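The 10 genes described here, Fos, Fosb, Jun, Junb, Atf3, Egr1, Nr4a1, Ier2, Dusp1 and Ier3, are immediate-early genes, which also respond when a tissue is taken apart into cells. They were chosen by name, as the probe sets whose gene symbol in the platform annotation is one of these, and not by a cutoff on a measured value. Earlier results of these data were known when they were chosen, so the choice was not independent of the data. Each of the 10 had 1 probe set, they are 10 of the 19661 named genes on the array, and all 10 were among the 14745 genes left by a filter on dim signal. The values are log2 levels from Affymetrix Mouse Gene 1.0 ST arrays, each hybridized with total RNA of a pool of 4 testes from mice aged 14.5 d, after the tunica had been taken off and spermatogenic cells prepared. The 23 arrays fell into 7 genotypes. PWDxB6 (3 arrays) and B6xPWD (3) are the reciprocal F1 hybrids of PWD, an inbred strain from Mus musculus musculus, and B6, a laboratory strain mainly of Mus musculus domesticus origin. PWDxPWK (2 arrays) is an F1 of PWD and PWK, a further musculus strain, and B6xBALB/C (6) and BALB/CxB6 (3) are the reciprocal F1s of the laboratory strains B6 and BALB/C. The inbred parents PWD (3 arrays) and B6 (3) complete the set, and crosses are named with the female first, by convention. The labels give no further treatment and do not state the litters of the pools, so p-values reflect only how much these pools vary.

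Immediate-early genes are transcribed within minutes of a stimulus by factors already present in the cell, among them CREB, SRF and its partners, and their mRNAs are short-lived. Fos, Fosb, Jun, Junb and Atf3 encode basic leucine zipper proteins that pair with each other to form AP-1 and related factors. Egr1 is a zinc finger transcription factor, Nr4a1 an orphan nuclear receptor that is also induced by luteinizing hormone in Leydig cells, and Ier2 a nuclear protein of the same early response. Dusp1 encodes a phosphatase that switches off MAP kinases and so limits the response, and Ier3 is a stress-inducible regulator of cell survival and a target of NF-kappaB. In many tissues enzymatic or mechanical dissociation raises their mRNAs before the cells are lysed, so their spread between samples can be a sign of handling. The labels used here give neither the method nor the duration of the cell preparation, and its part in the values was not tested.

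Markers of germ cells and of somatic cells were both measured. Above the dim-signal filter lay 15 of 16 listed spermatogonial and 17 of 18 meiotic prophase genes on the array, but also 17 of 17 Sertoli, 7 of 9 Leydig, 13 of 14 peritubular and stromal, 12 of 12 endothelial and 11 of 15 macrophage genes. In such mixed RNA, fewer cells of a type and less RNA per cell cannot be told apart. The medians of the arrays ran from 6.13 to 6.28 on the log2 scale.

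RefSeq promoter windows of GRCm38.p6 ran from 250 bases before to 50 after an annotated start. The windows of 8 of the 10 genes were searched, and none was used for Ier2 and Egr1. They are shown for Fos, for Dusp1, Nr4a1 and Atf3, which followed Fos between arrays, and for Ier3, which went its own way between the reciprocal hybrids. Capitals mark the motifs searched, on either strand or, for TATAAA, on the strand of the gene only. The Nr4a1 window surrounds a start inside the gene, which runs from 101253902 to 101274795 on chromosome 15. The windows are Fos at chr12:85473640-85473939 (plus strand), Dusp1 at chr17:26508423-26508722 (minus strand), Nr4a1 at chr15:101266596-101266895 (plus strand), Atf3 at chr1:191183284-191183583 (minus strand) and Ier3 at chr17:35821463-35821762 (plus strand).
Fos: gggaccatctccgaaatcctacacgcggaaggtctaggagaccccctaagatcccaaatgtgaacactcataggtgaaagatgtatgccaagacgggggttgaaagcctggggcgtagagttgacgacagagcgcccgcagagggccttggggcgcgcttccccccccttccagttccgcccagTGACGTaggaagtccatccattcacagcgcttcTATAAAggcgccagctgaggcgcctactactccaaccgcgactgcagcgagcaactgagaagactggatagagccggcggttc
Dusp1: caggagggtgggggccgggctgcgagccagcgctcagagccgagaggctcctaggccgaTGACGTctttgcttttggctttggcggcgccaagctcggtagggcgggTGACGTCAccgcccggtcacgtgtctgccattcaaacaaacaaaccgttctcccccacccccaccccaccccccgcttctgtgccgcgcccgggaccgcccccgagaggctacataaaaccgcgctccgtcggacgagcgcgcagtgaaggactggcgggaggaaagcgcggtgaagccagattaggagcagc
Nr4a1: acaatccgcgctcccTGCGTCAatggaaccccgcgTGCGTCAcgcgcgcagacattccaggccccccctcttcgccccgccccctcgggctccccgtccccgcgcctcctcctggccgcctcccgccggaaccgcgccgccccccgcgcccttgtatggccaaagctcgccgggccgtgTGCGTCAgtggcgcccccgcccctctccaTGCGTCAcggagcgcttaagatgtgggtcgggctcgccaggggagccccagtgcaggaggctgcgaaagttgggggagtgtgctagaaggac
Atf3: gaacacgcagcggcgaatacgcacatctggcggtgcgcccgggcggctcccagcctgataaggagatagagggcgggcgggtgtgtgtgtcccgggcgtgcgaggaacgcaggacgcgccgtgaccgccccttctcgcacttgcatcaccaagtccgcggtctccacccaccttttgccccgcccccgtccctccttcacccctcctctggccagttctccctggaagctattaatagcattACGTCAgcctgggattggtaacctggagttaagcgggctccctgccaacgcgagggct
Ier3: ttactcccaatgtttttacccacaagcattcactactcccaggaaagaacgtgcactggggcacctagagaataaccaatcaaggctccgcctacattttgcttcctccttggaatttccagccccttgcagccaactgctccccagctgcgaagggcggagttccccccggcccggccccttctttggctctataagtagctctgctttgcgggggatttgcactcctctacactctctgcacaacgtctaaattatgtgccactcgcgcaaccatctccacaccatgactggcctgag
The full palindrome TGACGTCA, the cAMP response element bound by CREB and ATF proteins, was found in 1 of the 8 windows, that of Dusp1, and in 1.79% of 32851 windows of this length. Its shorter form TGACGT, which lies within the palindrome and was counted on both strands, was in 3 of 8 windows (Atf3, Fos and Dusp1), against 7.51% of all windows, and the match in Atf3 is on the opposite strand and so reads ACGTCA. The variant TGCGTCA occurred in 2 of 8 windows against 2.12%, with 4 matches in Nr4a1 and 1 in Fosb. The CArG box of SRF had no match on either strand of the 8 windows (1.63% of all windows). Sites more than 250 bases before the start, and those of Ier2 and Egr1, were not searched. TATAAA, counted on the gene strand only, was in the windows of Fos and Junb (8.32% of all). A match of letters is a description and does not show that a factor was bound in these cells.

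Among the AP-1 genes, the level of Fos varied 3.23-fold over the 23 arrays. Fos stood at 9.23, 9.67 and 9.88 in PWDxB6, at 9.86, 10.13 and 9.65 in B6xPWD, at 9.25 and 9.02 in PWDxPWK, between 9.25 and 10.39 (median 10.14) in B6xBALB/C, at 9.86, 9.50 and 8.70 in BALB/CxB6, at 10.01, 9.84 and 9.83 in PWD, and at 9.56, 10.07 and 10.14 in B6. The lowest array was BALB/CxB6 replicate 3, followed by PWDxPWK replicate 2, while the PWD arrays were nearly level. Fosb, a close relative of Fos, had the widest range over all arrays among the 10, 7.38-fold. It stood at 9.93, 9.68 and 10.30 in PWDxB6, at 9.64, 9.72 and 9.36 in B6xPWD, at 9.51 and 9.63 in PWDxPWK, between 9.69 and 10.65 (median 10.23) in B6xBALB/C, at 10.05, 9.27 and 7.76 in BALB/CxB6, at 10.47, 10.40 and 10.59 in PWD, and at 9.52, 10.35 and 10.16 in B6. A single array, BALB/CxB6 replicate 3, set the lower end of that range, and the other 22 arrays lay between 9.27 and 10.65. Jun, the main partner of Fos in AP-1, varied 2.39-fold and Junb, which can replace it and is often the weaker activator, 1.98-fold. Jun was lowest in both PWDxPWK arrays (9.67 and 9.59) and in BALB/CxB6 replicates 2 and 3 (9.66 and 9.33), and it held within 10.16 to 10.26 in PWD and 10.17 to 10.21 in B6. Junb ran from 6.83 in BALB/CxB6 replicate 3 to 7.81 in PWD replicate 1.

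Atf3, a stress-induced factor of the ATF and CREB family, varied 4.27-fold. It stood at 8.73, 8.62 and 9.03 in PWDxB6, at 8.80, 9.15 and 8.70 in B6xPWD, at 8.21 and 7.98 in PWDxPWK, between 8.87 and 9.86 (median 9.58) in B6xBALB/C, at 8.86, 8.44 and 7.76 in BALB/CxB6, at 9.11, 9.02 and 8.77 in PWD, and at 9.10, 9.24 and 9.52 in B6. All 6 B6xBALB/C arrays lay above the 3 of BALB/CxB6, although the nearest values (8.87 and 8.86) almost met. The zinc finger gene Egr1 had the narrowest range of the 10, 1.89-fold, from 8.60 in B6xPWD replicate 3 to 9.52 in PWD replicate 3.

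The nuclear receptor gene Nr4a1 and the phosphatase gene Dusp1 moved widely inside single genotypes. Nr4a1 stood at 9.08, 9.26 and 9.80 in PWDxB6, at 8.40, 8.78 and 8.09 in B6xPWD, at 8.77 and 8.49 in PWDxPWK, between 8.11 and 10.03 (median 9.73) in B6xBALB/C, at 9.53, 8.74 and 7.96 in BALB/CxB6, at 9.15, 9.22 and 9.44 in PWD, and at 9.25, 9.48 and 9.39 in B6. Dusp1 stood at 8.41, 9.05 and 9.05 in PWDxB6, at 8.68, 9.12 and 8.81 in B6xPWD, at 8.74 and 8.39 in PWDxPWK, between 8.37 and 9.87 (median 9.47) in B6xBALB/C, at 8.79, 8.87 and 7.30 in BALB/CxB6, at 9.38, 9.43 and 9.55 in PWD, and at 8.75, 9.58 and 9.46 in B6. Both genes were low in B6xBALB/C replicate 3 and in BALB/CxB6 replicate 3. Over all arrays Dusp1 varied 5.93-fold, Nr4a1 4.21-fold and Ier2 2.07-fold, the last from 7.99 in B6xBALB/C replicate 3 to 9.04 in B6 replicate 2.

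Ier3 followed another order. It stood at 6.14, 7.23 and 6.27 in PWDxB6, at 7.63, 8.47 and 7.02 in B6xPWD, at 6.97 and 6.20 in PWDxPWK, between 6.31 and 7.13 (median 6.87) in B6xBALB/C, at 6.89, 6.71 and 6.89 in BALB/CxB6, at 6.95, 6.85 and 7.04 in PWD, and at 6.35, 6.36 and 6.73 in B6. The highest values of all arrays belonged to B6xPWD replicates 2 and 1, the lowest to PWDxB6 replicate 1, and the array that was lowest for most of the other genes was unremarkable for Ier3. PWDxB6 replicate 2 lay above B6xPWD replicate 3, so the reciprocal hybrids overlapped.

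**Figure D1:**
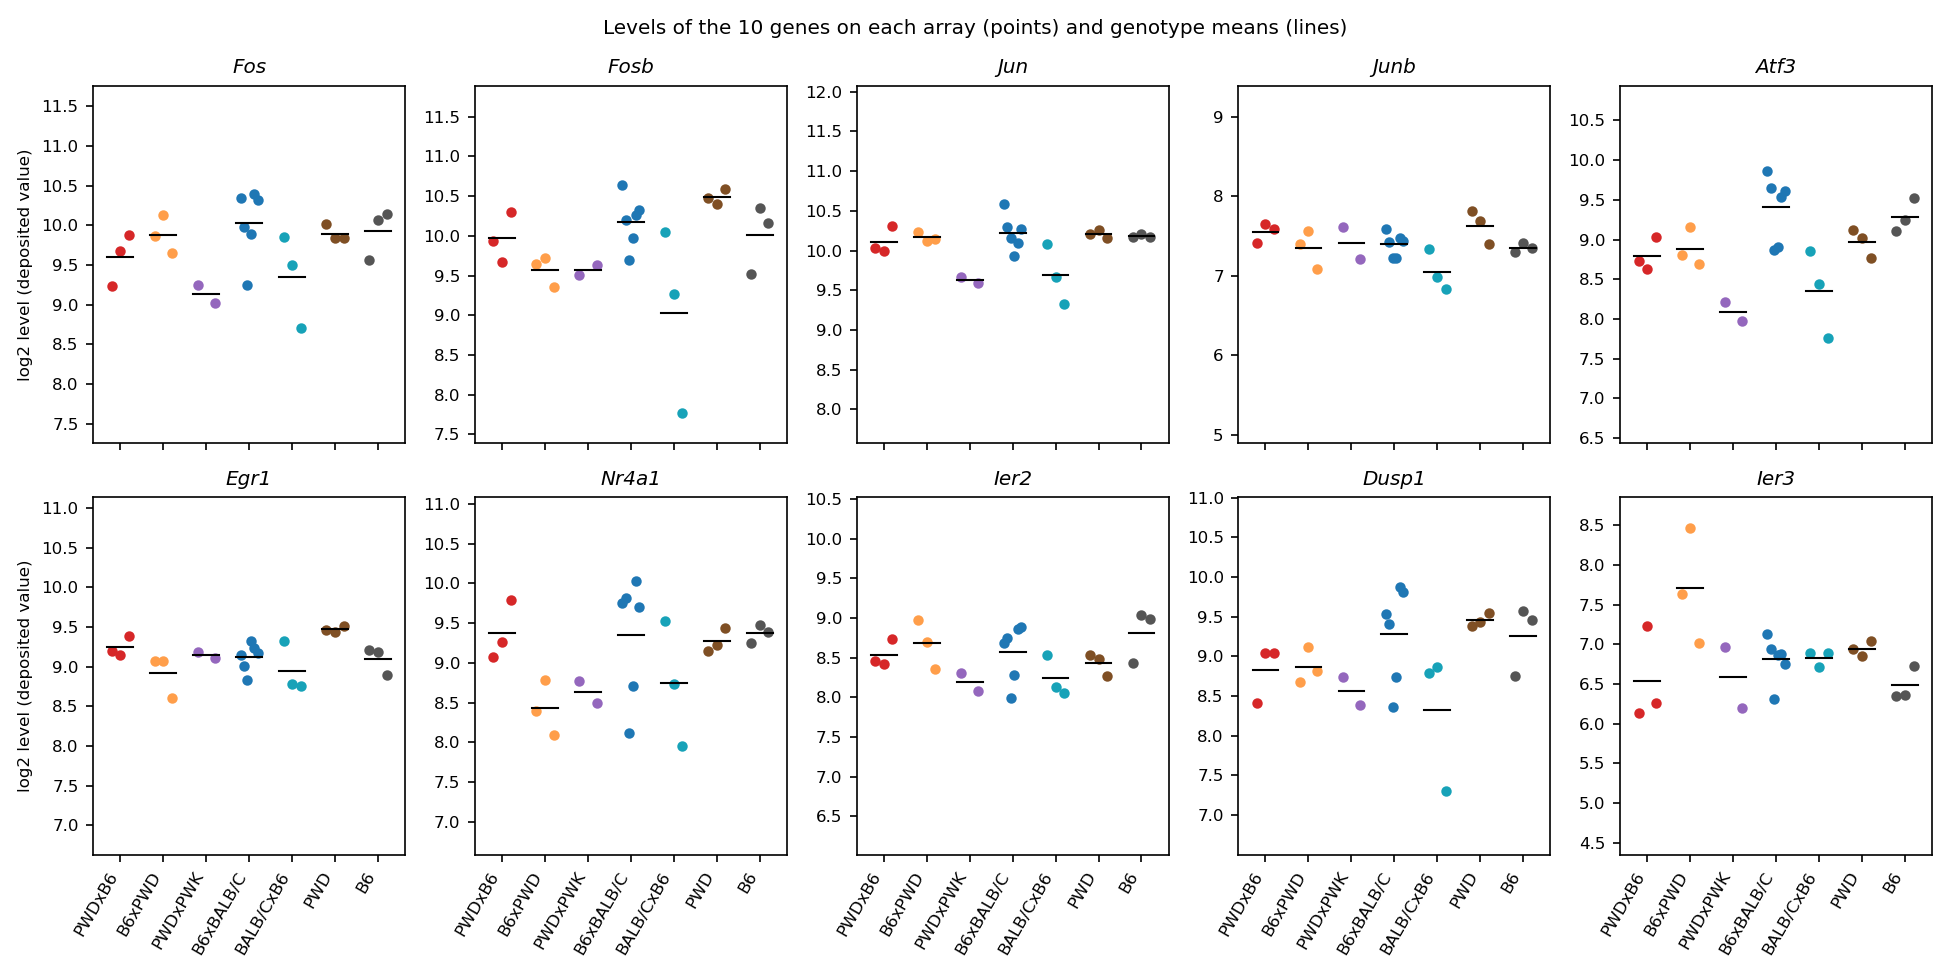
Deposited log2 level (vertical axes, each spanning the same number of log2 units) of the 10 genes on each of the 23 arrays (points, in replicate order within a genotype), with genotype means as lines. Fosb reaches down to 7.76 in BALB/CxB6 replicate 3, and Ier3 up to 8.47 in B6xPWD replicate 2.

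Within genotypes, 6 of the 10 genes varied more than 95% of all genes tested. The SD between arrays of the same genotype, pooled over the 7 genotypes, was 0.55 for Nr4a1, 0.52 for Dusp1, 0.49 for Fosb, 0.40 for Ier3, 0.37 for Fos and 0.34 for Atf3 in log2 units. It was 0.29 for Ier2, just inside the 95th percentile of all genes, and 0.20, 0.19 and 0.19 for Jun, Egr1 and Junb, which lay between the 70.4th and the 73.6th percentile. The median over the 10 genes was 0.36, against 0.16 over all genes tested. The genotypes differed in this spread. The median SD of the 10 genes was 0.26 in PWDxB6, 0.25 in B6xPWD, 0.16 in PWDxPWK, 0.34 in B6xBALB/C, 0.47 in BALB/CxB6, 0.10 in PWD and 0.22 in B6, while that of all genes lay between 0.10 and 0.15 in each. In PWD these genes varied no more between pools than a typical gene did (0.097 against 0.100). The spreads of the genotypes were not tested against each other, and they rest on 2 to 6 arrays each.

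Leaving out Ier3, after its values were seen, the mean deviation of the other 9 genes from their all-array means ordered the arrays from -1.04 in BALB/CxB6 replicate 3 to 0.48 in B6xBALB/C replicate 1. By genotype this mean was 0.03 ± 0.21 in PWDxB6, -0.11 ± 0.20 in B6xPWD, -0.28 and -0.48 in the 2 PWDxPWK arrays, 0.20 ± 0.35 in B6xBALB/C (n = 6), -0.45 ± 0.55 in BALB/CxB6, 0.23 ± 0.04 in PWD and 0.17 ± 0.20 in B6 (SD, n = 3 unless given). With Ier3 included, PWDxB6 and B6xPWD averaged -0.0074 ± 0.19 and -0.018 ± 0.25, PWDxPWK stood at -0.24 and -0.49, and the means of B6xBALB/C, BALB/CxB6, PWD and B6 were 0.17, -0.41, 0.21 and 0.12. Within B6xBALB/C replicates 1, 5, 6 and 2 stood at 0.48, 0.44, 0.42 and 0.30, and replicates 4 and 3 at -0.09 and -0.37. BALB/CxB6 spanned 0.07, -0.38 and -1.04 in replicates 1, 2 and 3. In BALB/CxB6 replicate 3, 7 of the 10 genes had their lowest value of all arrays, namely Fos, Fosb, Jun, Junb, Atf3, Dusp1 and Nr4a1. B6xBALB/C replicates 4 to 6 did not stand apart from replicates 1 to 3 in one direction: their means differed by 0.37 for Dusp1 and 0.34 for Fos, but by -0.25 for Jun and -0.11 for Atf3 (later minus earlier numbers).

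**Figure D2:**
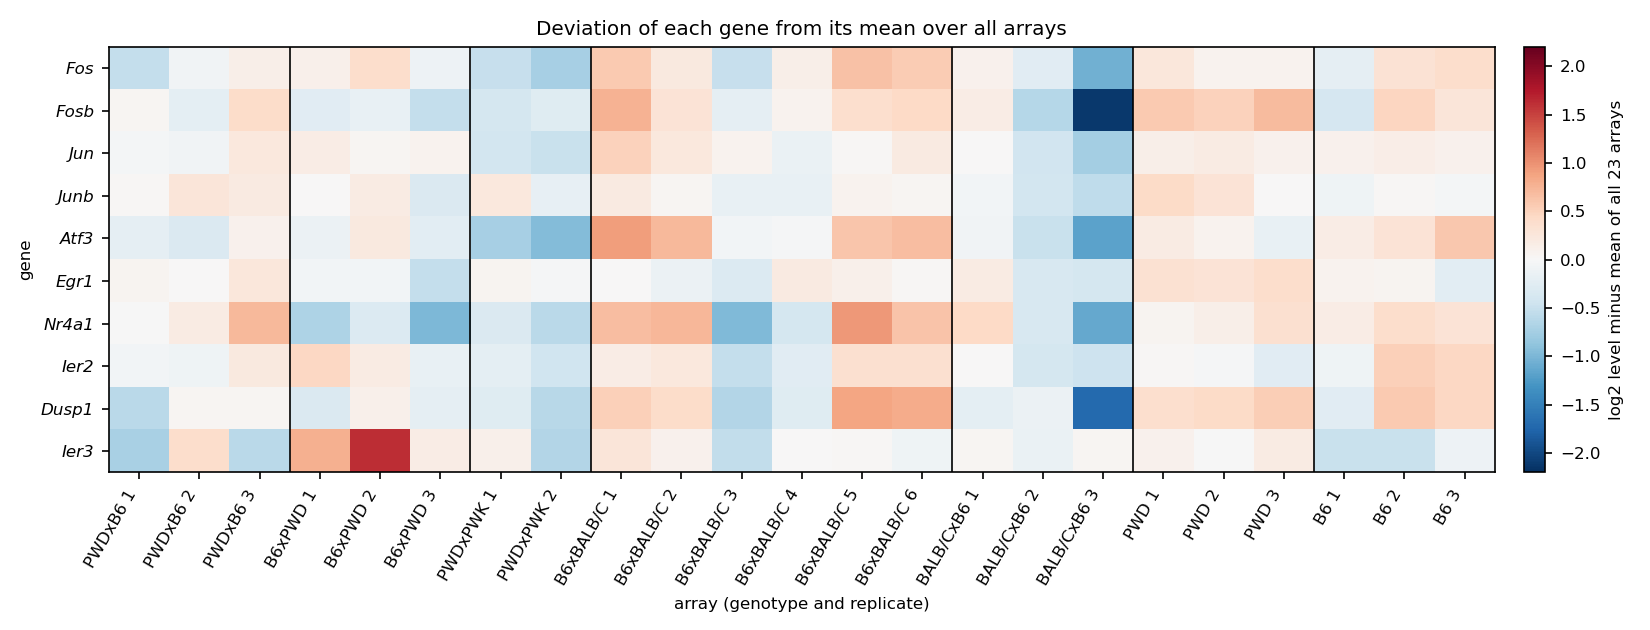
Difference of each array's log2 level from the mean of all 23 arrays (colour, log2 units) for the 10 genes (rows), with arrays grouped by genotype (columns, separated by lines). BALB/CxB6 replicate 3 is blue in 9 of 10 rows, whereas the strong red of Ier3 in B6xPWD replicates 1 and 2 is not shared by the other rows.

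Most of the 10 genes rose and fell together between pools of the same genotype. A model with the 7 genotype means and the level of Fos as a covariate was fitted to every other gene with limma, which asks how many log2 units a gene moves per log2 unit of Fos when genotype is held fixed. Only 0.0543% of 14744 genes, 8 genes, passed an adjusted p of 0.05, all 8 with a positive slope, and 5 of them were among the 9 genes besides Fos. Dusp1 moved by 1.27 log2 units per log2 unit of Fos (SE 0.13, limma adjusted p = 3.52e-05) and Nr4a1 by 1.29 (SE 0.16, limma adjusted p = 0.000381). Atf3 followed with 0.78 (SE 0.12, limma adjusted p = 0.00397), Fosb with 1.09 (SE 0.17, limma adjusted p = 0.00666) and Ier2 with 0.62 (SE 0.12, limma adjusted p = 0.0437). The slopes of Junb (0.37, limma adjusted p = 0.294), Egr1 (0.29, 0.583), Jun (0.31, 0.580) and Ier3 (0.50, 0.645) were also positive but did not pass.

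The remaining 3 called genes are immediate-early genes as well. Ccn1, a secreted matrix protein, had a slope of 1.39 (limma adjusted p = 0.00114), Zfp36, which destabilizes AU-rich mRNAs, one of 0.99 (limma adjusted p = 0.00397), and Btg2, an antiproliferative gene, one of 0.91 (limma adjusted p = 0.0266). They were the only calls in a list of 46 other immediate-early genes, of which 38 had a positive slope with a median of 0.24, against 47.9% of all genes and a median of -0.01. Srf, the factor that drives many of these genes, came next with a slope of 0.48 and a limma adjusted p of 0.0566, and passed in 6 of 39 alternatives (0.0223 to 1.00 over all of them). In Ccn1 the levels in BALB/CxB6 were 10.02, 9.27 and 8.29, so these arrays ranked as they did for Fos.

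The calls rested on a pair of arrays. Without B6xBALB/C replicate 3 and BALB/CxB6 replicate 3, an alternative chosen after seeing the data, 0 of the 9 genes were called, while the slopes stayed at 1.12 for Dusp1 (limma adjusted p = 0.267) and 1.11 for Nr4a1 (0.854). Without B6xBALB/C replicate 3, BALB/CxB6 replicate 1 or BALB/CxB6 replicate 3 alone, 3 of the 9 were called. The call of Ier2 was lost in 25 of 39 alternatives, in which its adjusted p ran from 0.0142 to 1.00. With Jun in the place of Fos as the covariate, 0 members were called, whereas with Dusp1 in its place members were still called.

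As Pearson correlations of the deviations from genotype means over 23 arrays, all 45 pairs of the 10 genes were positive, with a median r of 0.61 (lowest 0.02, Ier3 and Jun), against a median of -0.003 for all pairs of genes tested. Fos and Dusp1 gave r = 0.92 (permutation within genotypes, p = 0.00011, 0.000247 after Benjamini-Hochberg adjustment over the 9 pairs with Fos) and Spearman's rho = 0.89 (permutation p = 0.00016, adjusted 0.00048). Leaving out the 2 arrays with the most extreme Fos deviation, the same B6xBALB/C and BALB/CxB6 arrays, left r at 0.85. For Fos and Ier3 r was 0.46 (permutation p = 0.0172, adjusted 0.0221), with rho = 0.47 (permutation p = 0.0336, adjusted 0.0431) and r = 0.45 without those arrays. After adjustment, 7 of the 9 pairs with Fos passed, and those with Jun (r = 0.59, permutation p = 0.0702, adjusted 0.0702; rho = 0.48, adjusted 0.0881) and Egr1 (r = 0.56, permutation p = 0.0488, adjusted 0.0549; rho = 0.44, adjusted 0.0925) did not. This permutation test was run and adjusted for these 9 pairs only, so no share over all genes stands beside the 7. The limma model over all genes called 5 of the 9. These deviations share the arrays and their scaling, so the pairs are not independent of each other.

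**Figure D3:**
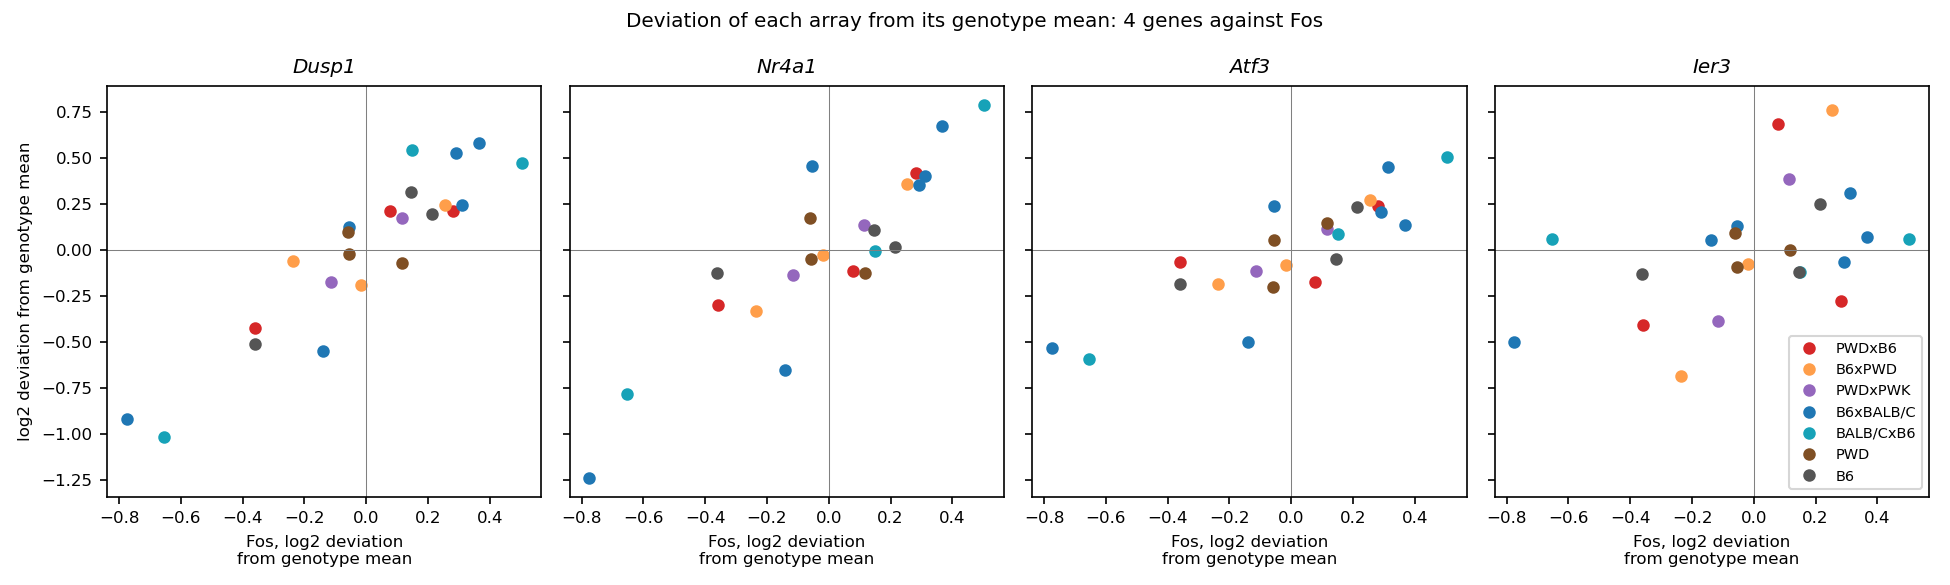
Deviation of each of the 23 arrays from its genotype mean, in log2 units, for Fos (horizontal axis) and for Dusp1, Nr4a1, Atf3 and Ier3 (vertical axis), coloured by genotype. Dusp1 follows Fos closely (r = 0.92), Ier3 loosely (r = 0.46), and the pair of points at the far left are B6xBALB/C replicate 3 and BALB/CxB6 replicate 3.

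In the other gene lists no gene was called for the association with Fos, and the lists were not tested against each other. The slope was positive in 13 of 13 NF-kappaB and cytokine response genes (median 0.18), in 9 of 18 upstream kinases and factors (median 0.01) and in 2 of 10 heat shock genes (median -0.12), which respond to misfolded protein. Among markers of cell types it was positive in 6 of 7 Leydig genes (median 0.47), 13 of 13 peritubular and stromal genes (0.28), 12 of 12 endothelial genes (0.18) and 8 of 11 macrophage genes (0.13). The medians were -0.05 for Sertoli genes (6 of 17 positive), 0.01 for spermatogonial genes (8 of 15) and -0.08 for meiotic prophase genes (4 of 17). The mean deviation of the 13 peritubular and stromal genes was lowest in BALB/CxB6 replicate 3 (-0.29), B6xBALB/C replicate 4 (-0.27) and B6xBALB/C replicate 3 (-0.23), and the sum of their log2 levels ran from 108.9 to 113.8 in BALB/CxB6 and from 109.2 to 114.3 in B6xBALB/C. With that mean as a further covariate, chosen after seeing the data, 0 of the 9 genes were called, with a slope of 1.10 for Dusp1 (limma adjusted p = 0.0767) and 0.87 for Nr4a1 (0.467). With the mean of the 7 Leydig genes 2 were called. With the mean of the meiotic prophase genes 5 were called, and 14 genes of the whole table. All 13 peritubular and stromal genes themselves had positive slopes on Fos, so their mean can take up variation shared with Fos, whatever its source. These fits are therefore no test of the share of such cells in the result, which was not tested.

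**Figure D4:**
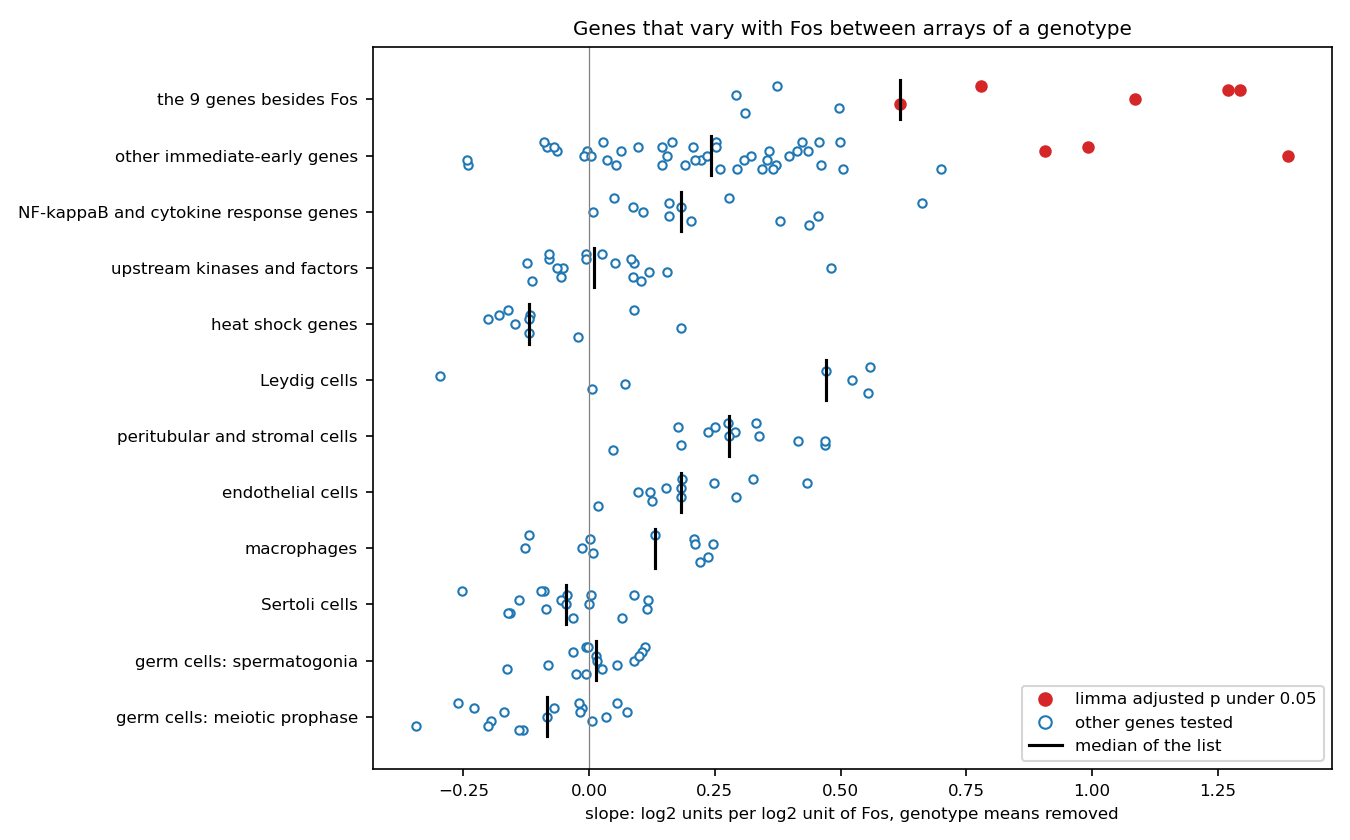
Slope on Fos with genotype means removed (horizontal axis, log2 units per log2 unit of Fos) for each tested gene (points) of the lists named on the vertical axis, with filled points for a limma adjusted p under 0.05 and a bar at each list's median. The 8 filled points lie in the upper 2 lists, and the medians run from 0.62 for the 9 genes besides Fos to -0.12 for heat shock genes.

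Between genotypes, 4 of the 10 genes differed by a moderated F test over the 7 genotype means, against 33.8% of all genes tested, so that the share is near the background. They were Atf3 (limma adjusted p = 0.00151), Jun (0.00955), Ier3 (0.0224) and Fosb (0.0257). Egr1, Fos and Junb (limma adjusted p = 0.0596, 0.0599 and 0.0603), Dusp1 (0.0847), Nr4a1 (0.123) and Ier2 (0.166) did not pass. The call of Ier3 was lost without B6xPWD replicate 1 (limma adjusted p = 0.0586) or replicate 2 (0.149), within a range of 2.68e-06 to 0.149 over 33 alternatives. That of Fosb was lost without PWD replicate 3 (0.0522) and with trended and robust variances (0.0748), the highest of a range that began at 0.00124. Without B6xBALB/C replicate 3 or without BALB/CxB6 replicate 1, 8 of the 10 genes were called. The count over the whole table shifted too, from 3976 to 6064 with an array left out, against 4985 with all arrays. Of the 46 other immediate-early genes 14 were called, led by Btg1, Mafk, Plk2 and Myc.

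Between the reciprocal hybrids PWDxB6 and B6xPWD, 1 of the 10 genes was called, against 2.83% of all genes. Ier3 averaged 6.54 ± 0.60 in PWDxB6 and 7.71 ± 0.73 in B6xPWD (SD, n = 3 each), and this call was lost without PWDxB6 replicate 1 (limma adjusted p = 0.154), without PWDxB6 replicate 3 (0.138) or without B6xPWD replicate 2 (0.184, the highest of 35 alternatives, of which the lowest gave 5.66e-06). The alternative with weighted arrays gave the largest weight, 4.64, to B6xPWD replicate 2, the highest array for Ier3. It called 4635 genes of the whole table. Nr4a1 differed the other way from Ier3, by 0.95 log2 units (SE 0.38, limma adjusted p = 0.157). Its 3 PWDxB6 arrays (9.08 to 9.80) all lay above the 3 of B6xPWD (8.09 to 8.78), as did those of Egr1 (9.14 to 9.39 in PWDxB6, 8.60 to 9.07 in B6xPWD), a separation that 13.1% of all genes showed in this direction. With Fos added to the model after seeing the data, genotypes were compared at an equal level of Fos. Fos, itself 1 of the 10 genes, averaged 9.59 in PWDxB6 and 9.88 in B6xPWD, and the adjusted differences depend on this gap too. The difference of Nr4a1 was then 1.33 log2 units (SE 0.20, limma adjusted p = 0.00157) and that of Ier3 -1.02 (SE 0.27, limma adjusted p = 0.0370). In that fit 3.38% of genes were called, and the other 7 genes did not pass. Nr4a1 follows Fos within genotypes, and its SE fell from 0.38 to 0.20. The share over all genes is therefore no like comparison for it. Among cell markers, differences were positive in 10 of 12 endothelial genes (median 0.21), 5 of 7 Leydig genes (0.27), 9 of 13 peritubular and stromal genes (0.17, 2 called higher and 1 lower) and 15 of 17 Sertoli genes (0.14). They were positive in 1 of 17 meiotic prophase genes (-0.21, 1 called lower), 4 of 15 spermatogonial genes (-0.21) and 5 of 11 macrophage genes (-0.015, 1 called lower), and their part in the result was not tested. Of the 46 other immediate-early genes 1 was called, Sik1, a kinase gene induced by cAMP, which was higher in PWDxB6 by 0.50 (limma adjusted p = 0.0213).

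Against the mean of the parents PWD and B6, with which both hybrid comparisons share arrays, PWDxB6 had 0 of 10 genes called (0.671% of all genes called, and 0 of 10 at an unadjusted p under 0.05 against 12% of all genes), with differences between -0.52 for Dusp1 and 0.06 for Nr4a1. Of cell markers in PWDxB6, differences were positive in 1 of 12 endothelial (median -0.20), 1 of 7 Leydig (-0.13) and 3 of 17 Sertoli genes (-0.061). They were positive in 6 of 13 peritubular and stromal (-0.048) and 3 of 11 macrophage genes (-0.087). The counts were 9 of 17 for meiotic prophase (0.048) and 8 of 15 for spermatogonial genes (0.0089, 1 called higher), and their part was not tested. B6xPWD had 1 of 10 called, against 14.5% of all genes. Ier3 was higher there by 0.99 log2 units (SE 0.25, limma adjusted p = 0.0127), a call lost without B6xPWD replicate 2 (0.61, limma adjusted p = 0.137, the highest of 35 alternatives from 3.84e-06). Lower values that did not pass were those of Nr4a1 (-0.90, limma adjusted p = 0.0687), Egr1 (-0.37, 0.0575) and Fosb (-0.68, 0.126). Markers of other cells also differed in B6xPWD. Lower there, with an adjusted p under 0.05, were 5 of 12 endothelial genes (0 of 12 with a positive difference, median -0.37), 2 of 7 Leydig genes (0 of 7, -0.45), 4 of 13 peritubular and stromal genes (2 of 13, -0.28, with 1 called higher) and 4 of 17 Sertoli genes (2 of 17, -0.17). Higher were 3 of 17 meiotic prophase genes (16 of 17 positive, 0.33), 4 of 15 spermatogonial genes (12 of 15, 0.14) and 1 of 11 macrophage genes (2 of 11, -0.092), and the part of these cells in the values of the 10 genes was not tested. With Fos in the model, added after seeing the data, differences were -0.86 for Nr4a1 (limma adjusted p = 0.00388), -0.65 for Fosb (0.0238) and -0.36 for Egr1 (0.0393). Dusp1 at -0.45 (0.0335) and Ier3 at 1.01 (0.00786) were called as well, again with 14.5% of all genes called. Fos averaged 9.88 in B6xPWD and 9.91 over the parents, and the differences hardly moved. The SE fell from 0.31 to 0.14 for Dusp1 and from 0.33 to 0.17 for Nr4a1. Both genes follow Fos within genotypes, so the share over all genes is no like comparison for them. Among the 46 other immediate-early genes 3 rose and 4 fell in B6xPWD, where 7.79% of all genes rose and 6.69% fell. Plk2, a polo-like kinase, was higher by 0.66 (limma adjusted p = 0.00533), while Egr3 and Nr4a2, relatives of Egr1 and Nr4a1, were lower, with differences of -0.53 (limma adjusted p = 0.0201) and -0.46 (0.0150).

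Between the parental strains PWD and B6, 0 of the 10 genes were called, against 18.4% of all genes, with 1 at an unadjusted p under 0.05, against 31% of all genes. That gene was Egr1, at 9.47, 9.44 and 9.52 in PWD and 9.20, 9.19 and 8.89 in B6, a difference of 0.38 (SE 0.15, limma adjusted p = 0.0843). Fosb and Ier3 were the other genes whose 3 PWD arrays all lay above those of B6, which 21.5% of all genes did. Cell markers were also compared. Differences were positive in 1 of 7 Leydig (median -0.52, 3 called lower) and 3 of 11 macrophage genes (-0.48, 5 lower, 2 higher). They were positive in 3 of 12 endothelial (-0.11, 1 lower) and 5 of 17 Sertoli genes (-0.12, 1 lower). The counts were 4 of 13 for peritubular and stromal (-0.16), 9 of 15 for spermatogonial (0.17, 4 higher, 2 lower) genes. For meiotic prophase genes it was 10 of 17 (0.078, 2 higher, 1 lower), and their part was not tested. The list of other immediate-early genes had 4 of 46 higher in PWD, against 10.4% of all genes, namely Btg1 by 0.56 (limma adjusted p = 0.000632), Gadd45b by 0.63 (0.0330), Fosl2 by 0.53 (0.0114) and Mafk by 0.42 (0.0147).

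In PWDxPWK all 10 genes had a lower mean than in PWD, but with 2 arrays in PWDxPWK none passed the test, and 0.00678% of all genes, a single gene, did. The differences ran from -0.92 for Fosb to -0.22 for Junb, with a median of -0.61, where the median of all genes was close to 0. In 7 genes, Fos, Fosb, Jun, Atf3, Egr1, Dusp1 and Nr4a1, both PWDxPWK arrays lay below all 3 PWD arrays, against 9.79% of all genes. Atf3 showed a difference of -0.87 (SE 0.27) and Jun one of -0.58 (SE 0.17), each with a limma adjusted p of 1.00, and 5 of the 10 had an unadjusted p under 0.05, as had 2.84% of all genes. These 10 genes move together between pools, so their common direction is not 10 separate observations. Several other lists also had fewer genes higher than lower in PWDxPWK, with 8 of 46 other immediate-early genes (median -0.17), 2 of 13 NF-kappaB and cytokine response genes (-0.19), 1 of 13 peritubular and stromal genes (-0.21), 2 of 12 endothelial genes (-0.11), 3 of 7 Leydig genes (-0.23) and 3 of 17 Sertoli genes (-0.087) higher. Of meiotic prophase genes 12 of 17 were higher (0.14), of spermatogonial genes 9 of 15 (0.13), of macrophage genes 5 of 11 and of heat shock genes 5 of 10 (0.0050). None of these genes was called, and their part in the lower values of the 10 genes was not tested.

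In the control cross, B6xBALB/C against BALB/CxB6, 9 of the 10 genes had a higher mean in B6xBALB/C and 1 was called, against 0.441% of all genes. Atf3 was 2.07-fold higher, 1.05 log2 units (SE 0.21, limma adjusted p = 0.0386), and this was the only one of the 10 without overlap between the groups, which 1.36% of all genes showed in this direction. The call was lost in 15 of 36 alternatives, with a value of 0.75 without BALB/CxB6 replicate 3 (limma adjusted p = 0.320), within a range of 0.00167 to 0.476. It was also lost without any of B6xBALB/C replicates 1, 2 and 5, BALB/CxB6 replicate 2, PWDxB6 replicate 3, B6xPWD replicate 1 and PWD replicates 1, 2 and 3, at limma adjusted p from 0.0505 to 0.104. Fosb at 1.15 (limma adjusted p = 0.0663), Jun at 0.53 (0.0591), Dusp1 at 0.97 (0.124) and Fos at 0.67 (0.147) were higher in B6xBALB/C without passing. The median difference of the 10 was 0.57, against -0.03 over all genes. Beside it, 15 of 17 meiotic prophase genes (median 0.33) and 13 of 13 NF-kappaB and cytokine response genes (0.23) were higher in B6xBALB/C, as were 1 of 17 Sertoli genes (-0.22), 3 of 15 spermatogonial genes (-0.13), 3 of 7 Leydig genes (-0.045), 8 of 13 peritubular and stromal genes (0.031), 7 of 12 endothelial genes (0.050) and 8 of 11 macrophage genes (0.052). None of these was called, and their part in the result was not tested. The B6xBALB/C arrays were not uniform in these markers. The mean deviation of meiotic prophase genes was -0.67 in replicate 6 and 0.17 to 0.82 in replicates 1 to 5. That of Leydig genes was 0.54 in replicate 6 and -0.22 to 0.08 in the others. With Fos in the model, 0 of the 9 other genes were called (2 genes of the whole table, 0.0136%). Atf3 differed by 0.53 (limma adjusted p = 0.302), and Nr4a1 and Ier2 changed sign, to -0.26 and -0.082. Fos itself averaged 10.03 in B6xBALB/C and 9.35 in BALB/CxB6, and the differences in that fit depend on this gap as well. Of the 46 other immediate-early genes Gadd45g, a stress-induced growth arrest gene, was called, 1.00 log2 units higher in B6xBALB/C (limma adjusted p = 0.0413).

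Set against its maternal strain B6, the B6xBALB/C group had 0 of 10 genes called, against 3.99% of all genes, and 0 of 10 at an unadjusted p under 0.05, against 22.2%. The differences lay between -0.24 for Ier2 and 0.33 for Ier3, with a median of 0.04. Among cell markers, differences were positive in 0 of 12 endothelial (median -0.36) and 0 of 7 Leydig genes (-0.45, 2 called lower). They were positive in 0 of 17 Sertoli (-0.30, 1 lower) and 3 of 13 peritubular and stromal genes (-0.12, 1 lower). The counts were 2 of 11 for macrophage (-0.40, 2 lower, 1 higher) and 16 of 17 for meiotic prophase genes (0.40, 4 higher). For spermatogonial genes it was 13 of 15 (0.29, 3 higher, 1 lower), and their part was not tested.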

How the data were processed

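The deposited table holds log2 values of 25690 probe sets on 23 arrays. How the authors normalized them, and with which software, is not given in the sources used here; base 2 was inferred because the deposited values span 1.17 to 13.96. The labels' protocols name a whole-transcript labelling assay and the design text a 3' IVT kit. Per the design text the authors left out a further PWDxPWK array. Scanner files were not used here, so brightness above background is unknown, and precision is limited by how many arrays there are.

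The platform annotation named the probe sets (20777 with 1 symbol, 232 with several and 4681 with none listed), and for 564 of 19661 genes the brightest of several probe sets was kept. The 25% of genes with the lowest mean (log2 up to 5.12) were left out. Genotype means were fitted with limma 3.58.1 in R 4.3.3 (16 residual degrees of freedom), and p-values were adjusted by Benjamini-Hochberg over all 14745 genes, or 14744 in the model with Fos, with a threshold of 0.05. Correlations used 100000 permutations within genotypes.

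The members and lists were chosen with earlier results of these data known. All 10 members are named. Of other lists, up to 4 genes with the smallest p per test could be named, and for Fos also the called genes with the largest statistics, at most 10 positive and 5 negative. Alternatives were other filters, quantile normalization, median centring, the mean of probe sets, trended variances, weighted arrays, the replicate number as a block, fewer groups, Dusp1 or Jun in place of Fos, and each array left out. Added after seeing the data were marker means as covariates, Fos as a covariate of contrasts, and leaving out a pair of arrays. Same-numbered arrays did not deviate together (median r = 0.01 over 57 pairs), so the numbers were not taken to pair them. The models were run on simulated data with planted changes and noise drawn independently for each gene. That setting does not cover genes that move together or calls that rest on a few arrays. Promoter sequences are RefSeq's, and matplotlib 3.10.9 under Python 3.11.15 drew the figures.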

Additional observations from a re-analysis of the deposited data

How the results depend on the processing

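The count of called genes among the 10 varied with the filter, the model, the covariates and the arrays used. Between PWDxB6 and B6xPWD it was 0 with only those genotypes fitted, 2 with Fos as a covariate, and 0 to 1 with an array left out. For B6xPWD against the parental mean it was 2 with a stricter filter, trended and robust variances, array weights, or B6xBALB/C replicates 4 to 6 only. It was 3 with a replicate block, with B6xBALB/C replicates 1 to 3 only or with only the genotypes compared, 5 with Fos as a covariate, and 0 to 3 with an array left out. For PWD against B6 it was 1 with array weights or the replicate block and 2 with only these strains fitted, and for PWDxPWK against PWD it was 1 with only these fitted. Both stayed at 0 with any array left out, as did PWDxB6 against the parental mean and B6xBALB/C against B6. For B6xBALB/C against BALB/CxB6 it was 0 with trended and robust variances, with B6xBALB/C replicates 4 to 6 only, with only these crosses fitted, without the pair of low arrays, or with Fos as a covariate. It was 2 with array weights, 3 with the replicate block or with B6xBALB/C replicates 1 to 3 only, and 0 to 3 with an array left out. For the 7 genotypes it was 8 with array weights, 7 with the replicate block and 3 to 8 with an array left out. With array weights 9601 of the 14745 genes tested were called for the 7 genotypes, against 4985 as reported. For the association with Fos it was 0 with Jun as the covariate, with the peritubular mean or without the pair of low arrays, 2 with the Leydig mean, and 3 to 5 with an array left out. The cause of these shifts was not tested. With Fos as a covariate the control-cross differences of Nr4a1 (-0.26) and Ier2 (-0.082) reversed.

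The median within-genotype SD of the 10 genes was 0.31 to 0.37 with an array left out and 0.32 to 0.37 under the other alternatives. Over the whole table, calls ran from 3856 to 9601 (4985 as reported) for the 7 genotypes, from 54 to 4635 (418) between PWDxB6 and B6xPWD, from 389 to 5967 (2135) for B6xPWD and from 30 to 239 (99) for PWDxB6 against the parental mean. They ran from 1802 to 3598 (2719) for PWD against B6, from 0 to 4 (1) for PWDxPWK against PWD, from 0 to 1618 (65) in the control cross, from 46 to 2796 (589) for B6xBALB/C against B6, and from 0 to 14 (8) for the association with Fos. Array weights gave the highest count for the 7 genotypes, for PWD against B6 and in the control cross. The same held between PWDxB6 and B6xPWD and for B6xPWD against the parental mean. Because the share over all genes shifts in this way, counts among the 10 are not comparable between settings.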

Other observations

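The genes that followed Fos but are not among the 10 were also low in PWDxPWK and in BALB/CxB6 replicate 3. Zfp36 stood at 8.90, 8.43 and 8.04 in BALB/CxB6 and at 8.14 and 7.99 in PWDxPWK. Btg2 stood at 9.10, 8.60 and 7.96 in BALB/CxB6 and at 7.82 and 8.07 in PWDxPWK. In B6xBALB/C, Ccn1 ran from 8.53 to 10.57 (median 10.30), with replicate 3 at its low end.

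Heat shock genes, a further class that responds to stress of cells, were called in the following comparisons. In B6xPWD against the mean of PWD and B6, 2 of 10 rose, the chaperone genes Hspa5 by 0.27 (limma adjusted p = 0.0346) and Dnajb1 by 0.38 (0.0398). In B6xBALB/C against B6, Dnajb1 rose by 0.46 (limma adjusted p = 0.0331) and Hspa8 fell by 0.39 (0.0239). In PWD against B6, Bag3, a co-chaperone gene, was higher by 0.48 (limma adjusted p = 0.00992). Shares of called genes over the whole table in these comparisons were 14.5%, 3.99% and 18.4%.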
